A study of Mus musculus with 16 samples.

Results

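The mRNA levels of 3 glycolytic enzymes, Eno1, Gpi1 and Gapdh, were measured in mouse liver with 5 of the 24048 probes of an Illumina bead array. The 3 genes are 3 of 7413 genes that could be named on the array. They were chosen on measured values of the comparison between transgenic and wildtype liver, so their genotype differences are given as a description with no test. The probes that could be named were 1 for Eno1, 2 for Gpi1 and 2 for Gapdh, and all 5 were detected on 16 of 16 arrays.

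The livers came from 7 male mice carrying a Lactb transgene and 9 male wildtype mice of the FVB strain. The protein made from Lactb sits in mitochondria and resembles bacterial enzymes that cut penicillin. All animals were 23 weeks old, had eaten a chow diet with 4% fat up to week 11, and ate one with 6% fat from then on. The promoter of the transgene and the number of founder lines are not given in the sources used here, and the level of Lactb itself was not analysed because no named probe reads it. Each array is 1 liver, and 16 arrays set the limit on how precise any value below can be.

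Glycolysis splits glucose into pyruvate, and in hepatocytes most of its steps also run backwards to make glucose. Gpi1 interconverts glucose 6-phosphate and fructose 6-phosphate near the top of the pathway, where the pentose phosphate branch leaves and rejoins it. Gapdh oxidises glyceraldehyde 3-phosphate and yields NADH, and Eno1 makes phosphoenolpyruvate near the end. All 3 work on reversible steps, so both directions use them, and Gapdh mRNA is widely used as a reference for loading.

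The promoters are shown because transcription of these 3 genes in low oxygen is classically tied to HIF-1, a factor with a short core site. Each window holds 250 bases before and 50 bases after an annotated start of RefSeq, in GRCm38.p6, and is written 5′ to 3′ on the strand of the gene. Capitals mark ACGTG or GCGTG on either strand, the reverse reading being CACGT or CACGC. The windows lie at chr4:150236974-150237273 on the plus strand for Eno1, chr7:34230287-34230586 on the minus strand for Gpi1 and chr6:125165724-125166023 on the minus strand for Gapdh.
Eno1: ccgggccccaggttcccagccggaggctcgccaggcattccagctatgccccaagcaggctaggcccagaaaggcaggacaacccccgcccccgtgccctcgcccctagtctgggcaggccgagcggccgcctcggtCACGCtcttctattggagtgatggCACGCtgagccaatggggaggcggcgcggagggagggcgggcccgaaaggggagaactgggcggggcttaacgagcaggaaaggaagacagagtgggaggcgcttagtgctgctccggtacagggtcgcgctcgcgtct
Gpi1: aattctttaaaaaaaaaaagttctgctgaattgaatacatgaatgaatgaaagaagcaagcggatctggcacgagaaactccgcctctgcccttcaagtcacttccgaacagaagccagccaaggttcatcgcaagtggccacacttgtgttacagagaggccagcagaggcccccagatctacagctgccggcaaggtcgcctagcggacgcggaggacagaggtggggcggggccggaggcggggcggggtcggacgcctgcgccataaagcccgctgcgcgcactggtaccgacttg
Gapdh: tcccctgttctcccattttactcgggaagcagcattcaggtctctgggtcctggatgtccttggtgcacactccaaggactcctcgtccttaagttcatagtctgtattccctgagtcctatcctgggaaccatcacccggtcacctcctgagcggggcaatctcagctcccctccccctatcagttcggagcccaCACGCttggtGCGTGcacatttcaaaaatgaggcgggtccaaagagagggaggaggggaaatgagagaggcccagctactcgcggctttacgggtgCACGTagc
The Eno1 window held 2 such matches and the Gapdh window 3, while the Gpi1 window held 0. A match was present in 43.8% of 32851 mouse promoter windows of the same length. Eno1 had 2 further annotated windows on chromosome 4, each with 2 matches, of which 1 overlaps the window shown. The GC box GGGCGG, read on both strands, occurred 3 times in the Eno1 window, 2 times in the Gpi1 window and 0 times in the Gapdh window, against at least 1 match in 35.7% of windows. CCAAT, also on both strands, occurred 2 times for Eno1 and 0 times for the other genes, and 37.4% of windows held it. A match is a stretch of letters and not a shown binding site.

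Every transgenic liver had an Eno1 level above the wildtype mean. The deposited intensity was 1532 in the lowest transgenic liver, 1641.3 at the median and 2071.9 in the highest, against 1211.7, 1344.5 and 1828.7 in wildtype liver. The groups overlapped: 2 of 7 transgenic animals lay above every wildtype animal, and wildtype replicates 4 and 5 were as high as most transgenic ones. On the log2 scale of the normalized values transgenic liver had a mean level of 10.79 ± 0.15 (SD, n = 7) and wildtype liver one of 10.54 ± 0.19 (SD, n = 9). The difference was 0.25 (SE 0.089), a 1.19-fold higher mean.

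Gpi1 was read by a brighter and a dimmer probe. The intensity of the brighter probe was 809.4, 1156.1 and 1413.3 at the lowest, median and highest transgenic liver and 671, 1000.4 and 1204 in wildtype liver. The groups overlapped widely: 5 of 7 transgenic animals exceeded the wildtype mean and 3 exceeded every wildtype animal, while transgenic replicates 1 and 2 lay among the low wildtype animals. The mean log2 level was 10.18 ± 0.22 (SD, n = 7) in transgenic liver. It was 9.94 ± 0.23 (SD, n = 9) in wildtype liver, which left a gap of 0.24 (SE 0.11), or 1.19-fold.

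The dimmer Gpi1 probe read most transgenic livers above all wildtype ones. Its intensity ran from 110.5 through a median of 222.3 to 252 in transgenic liver and from 129.4 through 163.4 to 216.5 in wildtype liver. Transgenic replicate 1 was the lowest of all 16 livers. In deposited intensity 5 transgenic animals lay above all 9 wildtype ones, and after normalization 6 did, the added animal being transgenic replicate 2 at an intensity of 180.5. The log2 level averaged 7.97 ± 0.22 (SD, n = 7) in transgenic liver. In wildtype liver it averaged 7.78 ± 0.11 (SD, n = 9), and the transgenic mean exceeded it by 0.19 (SE 0.085).

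Gapdh gave the smallest difference of the 3 genes. The brighter of its 2 named probes read 11727, 13689.8 and 14758.8 at the lowest, median and highest transgenic liver and 11330, 12515.9 and 13762.1 in wildtype liver. Transgenic animals reached higher, with 3 above every wildtype liver, but the lowest animals of both groups lay close together. Log2 levels averaged 13.76 ± 0.15 (SD, n = 7) for transgenic and 13.61 ± 0.092 (SD, n = 9) for wildtype animals. The transgenic mean was higher by 0.15 (SE 0.070), or 1.11-fold, and by 0.079 (SE 0.082) after median scaling.

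The dimmer Gapdh probe, named by its RefSeq transcript, gave nearly the same difference. Its intensity was 6274.5, 7143.1 and 7324.4 in transgenic and 5387.6, 6532.3 and 7048.5 in wildtype liver, at the lowest, median and highest animal. The log2 difference was 0.13 (SE 0.067), and 3 of 7 transgenic animals exceeded every wildtype animal on that scale, against 4 of 7 in deposited intensity. A further tested probe bears the same sequence number in its identifier as the dimmer Gapdh probe, but the naming rule left it unnamed. Its log2 difference was 0.14 (SE 0.068), and its values in single animals are not given here. Near-identical copies of Gapdh and of Eno1 exist in the mouse genome, and the share of signal from such copies was not tested.

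**Figure D1:**
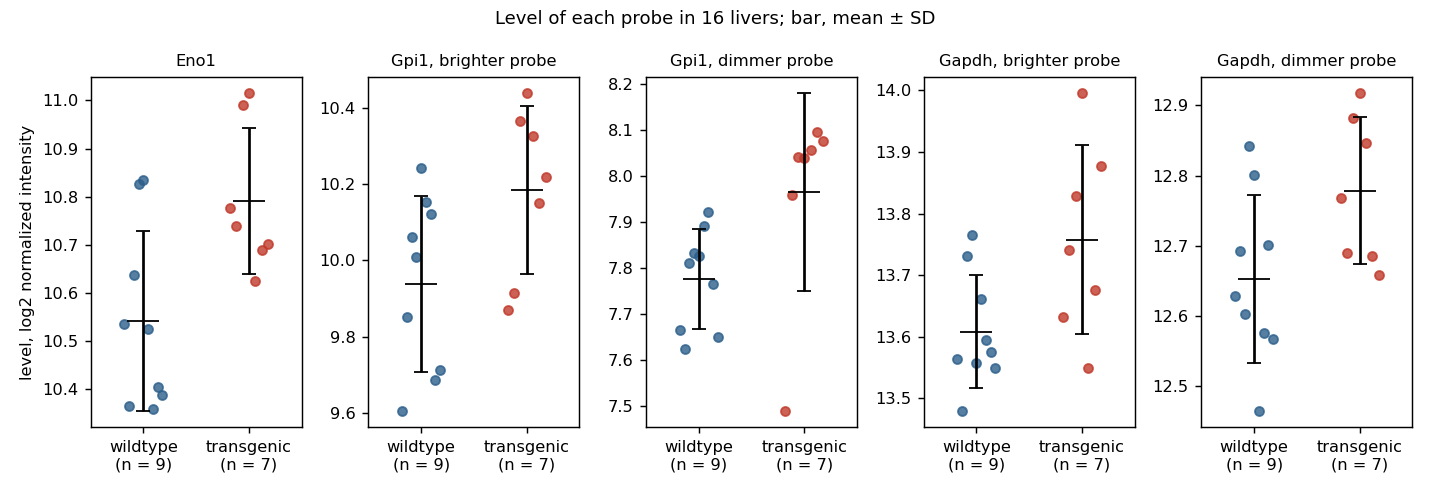
Log2 normalized intensity of each of the 5 probes in every liver, wildtype (blue, n = 9) and transgenic (red, n = 7), with the mean and SD of each group in black; the vertical scale differs between panels. The means of all 5 probes are higher in transgenic liver, and each pair of groups overlaps.

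The means of all 5 probes were higher in transgenic liver, a direction fixed by the choice of the genes, while 48.7% of the 11317 tested probes had a higher mean there. Across those probes, limma with Benjamini-Hochberg adjustment called 0% at an adjusted p under 0.05 (0 of 11317) and 332 probes, 2.93%, had an unadjusted p under 0.05. The lowest adjusted p of any probe was 0.932. None of the 5 probes was therefore called, and their differences stand beside SDs of 0.092 to 0.23 within a genotype. When single animals were left out in turn, the lowest difference came without transgenic replicate 4 for all 3 genes, at 0.21 for Eno1, 0.20 for Gpi1 and 0.11 for Gapdh.

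Part of the animal-to-animal variation was shared across the array. A principal component analysis of the tested probes, run without the 5 probes, gave a first axis that held 57.2% of their variance, and the second held 7.1%. Its coordinate ran from -31.1 to -25.8 in 6 animals (transgenic replicates 1 and 2, wildtype replicates 1, 2, 8 and 9) and from 16.6 to 25.6 in 8 animals. Wildtype replicates 3 and 7 lay between, at -2.4 and 6.95. Gpnmb, a lysosomal glycoprotein of lipid-laden macrophages, had intensities of -24.6 to -0.9 at the lower end, 567.6 and 868.5 between the ends, and 1348.5 to 4441.3 at the upper end. These ends are a description drawn from the data and not groups of the study.

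Gpi1 followed this axis closely. The log2 level of the brighter probe was 9.60 to 9.92 in the 6 lower-end animals, 10.06 and 10.12 in the 2 animals between, and 10.01 to 10.44 at the upper end. All 6 animals at the lower end were thus below all 10 others, whichever genotype they had. The dimmer Gpi1 probe put 5 of the 6 below all others. Such a division is not particular to Gpi1, since the axis is drawn from the probes themselves. Among the other listed genes Pkm, Akr1b3, Pfkfb4, Actb and, by its brighter probe, Dcn also put all 6 below all others. The macrophage markers Gpnmb, Cd63, Cd68, Lyz2 and Mmp12 did so too, whereas the macrophage marker Csf1r put 2 below. The share of all tested probes that do so is not given here. Among the 8 animals at the upper end, the correlation with the coordinate was 0.15 for the brighter and 0.50 for the dimmer probe, and among the 6 at the lower end it was -0.35 and -0.33.

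Eno1 and Gapdh did not divide the animals in this way. The log2 level of Eno1 was 10.36 to 10.78 at the lower end and 10.53 to 11.02 at the upper end. For the brighter Gapdh probe the ranges were 13.48 to 13.74 and 13.55 to 14.00, and for the dimmer probe they were 12.57 to 12.77 and 12.46 to 12.92. The ranges of both genes overlapped widely between the ends.

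**Figure D2:**
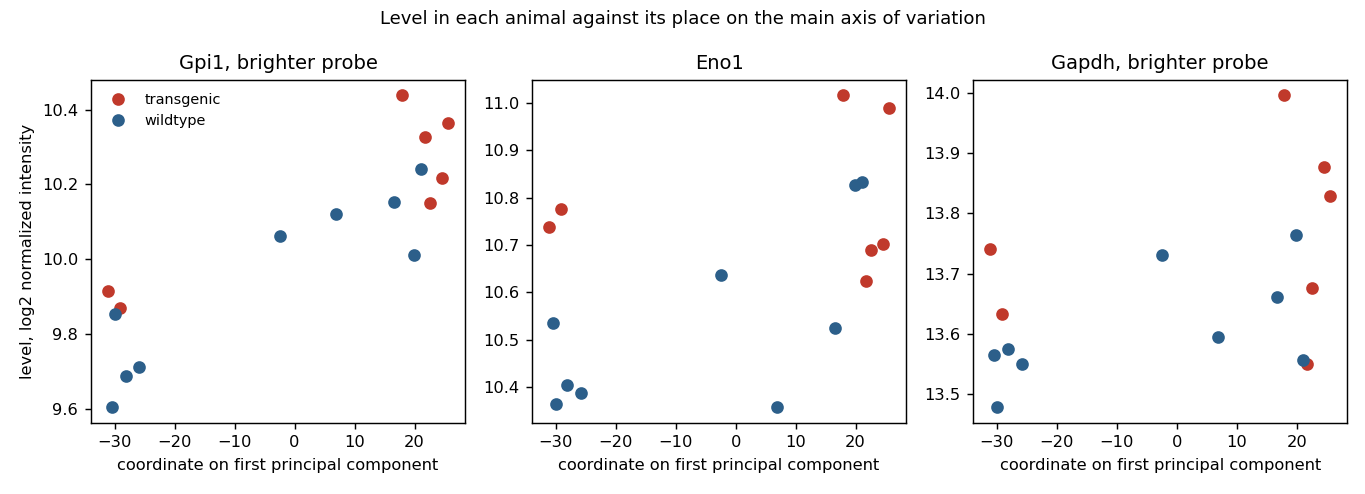
Log2 normalized intensity of Gpi1 and Gapdh (brighter probes) and of Eno1 in each of 16 livers, against the coordinate of the liver on the first principal component of the other probes; red, transgenic; blue, wildtype. The 6 animals on the left are the lowest in Gpi1, at 9.60 to 9.92, while Eno1 and Gapdh overlap between left and right.

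The correction and scaling of the arrays changed this picture for Gapdh and not for Gpi1. Under each of the 5 other settings of background, offset and normalization tried, the brighter Gpi1 probe again put all 6 lower-end animals below all others. With the deposited intensities taken as they were, for example, its log2 level was 9.39 to 9.76 there and 9.97 to 10.46 in the others. Gapdh turned over: after median scaling the brighter probe was 13.68 to 13.90 at the lower end and 13.38 to 13.84 in the others, and 2 lower-end animals stood above all 10. After cyclic loess, 3 lower-end animals stood below all others instead. No direction along the axis can therefore be given for Gapdh.

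Within each end, the genotypes can be set side by side for the few animals there. At the lower end, Eno1 was 10.74 and 10.78 in the 2 transgenic livers and 10.36 to 10.54 in the 4 wildtype livers. At the upper end it was 10.62 to 11.02 in 5 transgenic and 10.53 to 10.83 in 3 wildtype livers. Transgenic Eno1 was thus above wildtype without overlap at the lower end only, over 6 animals, and the difference between the ends was not tested.

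For Gpi1 and Gapdh the order at the lower end depended on the probe. The brighter Gpi1 probe read 9.87 and 9.92 in transgenic and 9.60 to 9.85 in wildtype livers there, and 10.15 to 10.44 against 10.01 to 10.24 at the upper end. The brighter Gapdh probe read 13.63 and 13.74 against 13.48 to 13.58 at the lower end and 13.55 to 14.00 against 13.56 to 13.76 at the upper end. The dimmer probes overlapped at the lower end, at 7.49 to 7.96 against 7.62 to 7.77 for Gpi1 and 12.69 to 12.77 against 12.57 to 12.70 for Gapdh. The brighter Gpi1 probe overlapped there too in deposited intensity, at 809.4 to 869.4 against 671 to 821.8. Of the 7 transgenic animals 5 lay at the upper end, against 3 of 9 wildtype animals, so genotype and place on the axis were partly mixed. With the coordinate as a covariate the log2 difference was 0.21 (SE 0.085) for Eno1, 0.12 (SE 0.069) for Gapdh and 0.13 (SE 0.067) for Gpi1, the last being down from 0.24.

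The labels give each animal a title number whose meaning is not stated, and 4 animals (transgenic replicates 3, 4 and 5 and wildtype replicate 8) share number 12. Without those 4 the log2 difference was 0.17 for Eno1, 0.069 for Gpi1 and 0.12 for Gapdh. The value of Gpi1 thus rested largely on these animals, which lie at opposite ends of the axis by genotype.

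Markers of some other cell types differed along the same axis. Of 15 macrophage markers 6 were named and tested, Cd68, Csf1r, Lyz2, Gpnmb, Mmp12 and Cd63. Their summed intensity was 489 to 732.3 at the lower end and 6926.2 to 12516.2 at the upper end, and by genotype it ran from 554.2 through a median of 8268.6 to 12516.2 in transgenic and from 489 through 2278 to 9724.3 in wildtype liver. Gpnmb, Mmp12 and Cd68 lay at -24.6 to 20.4 in the 6 lower-end animals, near or below background, whereas Lyz2, at 200.8 to 385.9, did not.

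Hepatocyte genes went the other way in sum. Apoa1, Trf, Serpina1a and Ass1, the 4 hepatocyte markers with a tested probe of 8 listed, summed to 77893.5 to 88387.7 at the lower end and to 52984.1 to 71547.5 at the upper end. Of these only Serpina1a was lower at the upper end without overlap, at 6735.2 to 9563.2 and 2254.1 to 3358.1. Taken singly, Apoa1, Trf and Ass1 overlapped between the ends. Apoa1, which encodes the main protein of high-density lipoprotein, had intensities of 20433.6 to 36045 over the 16 arrays, so a defining hepatocyte transcript was abundant in every sample. The part of these cell types in the levels of Gpi1, Eno1 and Gapdh was not tested, and in bulk tissue fewer cells of a type and less RNA per cell cannot be told apart. The neutrophil markers S100a9 and Cxcr2 summed to 29.2 to 85.6 at the lower end and 216.7 to 317 at the upper end. Only S100a9 set the ends apart, at 7.2 to 49.4 and 192 to 286.6. Cxcr2 overlapped between the ends, at 8.5 to 57.3 and 19.1 to 39.6, so the sum speaks for S100a9 alone. Spp1, listed for cholangiocytes, read 189.8 to 398.2 at the lower end and 735.8 to 2602.2 at the upper end. The adipocyte markers Fabp4 and Car3 summed to 16737.8 to 21984.8 at the lower end and 9612.1 to 14270.3 at the upper end. Nearly all of that sum was Car3, at 16697.1 to 21935.8 and 9554.2 to 14257. Fabp4 was dim and overlapped between the ends, at 24.1 to 49 and 13.3 to 57.9, so no adipocyte signal can be read from the sum. The sums of the T cell, B cell, endothelial, stellate and red cell lists overlapped between the ends, but a sum mostly follows its brightest genes. In the stellate list Colec11, Dcn by its brighter probe, Col1a1 and Col3a1 were higher in intensity at the upper end without overlap, while Lrat and Reln overlapped. After normalization Colec11 overlapped too, at 8.82 to 9.35 and 9.24 to 9.54 in log2 level. The dimmer Dcn probe overlapped on both scales, with intensities of 663 to 872.8 and 803.3 to 1792.8. Of the B cell genes, Ighm was 147 to 271.1 at the lower end and 84.7 to 127.8 at the upper end, while Igkc overlapped. Of 6 skeletal muscle markers none had a named probe.

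The other enzymes of the pathway were read from a list of 29 genes of the glycolytic steps, of which 18 had a named probe and 15 a tested one. Of these 15, 12 had a higher mean in transgenic liver, with a median log2 difference of 0.10. Without the 3 chosen genes, 9 of 12 were higher and 3 lower, with a median of 0.081, whereas the median over all tested probes was -0.0041. In limma 0 of the 12 passed an adjusted p of 0.05 and 0 had an unadjusted p under 0.05, where 2.93% of all tested probes did. None of the 12 enzymes thus rose or fell by the test.

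In pathway order, the phosphofructokinases, which commit sugar to glycolysis, had slightly lower means in transgenic liver, with log2 differences of -0.076 (SE 0.075) for the liver form Pfkl and -0.058 (SE 0.071) for Pfkm. Aldoa, an aldolase that splits fructose bisphosphate, gave 0.084 (SE 0.12). Tpi1, which interconverts the 2 triose phosphates, gave 0.074 (SE 0.073), Pgk1, the first step to make ATP, 0.10 (SE 0.069), and Pgam1, the mutase before enolase, 0.079 (SE 0.090). Pgam1 was dim, with intensities of 12.7 to 45.2 and detection on 11 arrays. Each of these differences was within about 1.5 SE of 0. These enzymes, which include the steps on either side of Gapdh, thus gave differences that their errors do not set apart from 0.

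The other 2 enolases, Eno2 of neurons and Eno3 of muscle, had log2 differences of 0.13 (SE 0.091) and 0.19 (SE 0.11). Both were dim, with intensities of 11.4 to 46.7 for Eno2 and 20.3 to 71.9 for Eno3, and they were detected on 10 and 12 arrays. At the end of the pathway, lactate dehydrogenase, which turns pyruvate into lactate, gave -0.084 (SE 0.12) for Ldha and 0.10 (SE 0.099) for Ldhb.

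Pkm, the pyruvate kinase of most tissues other than hepatocytes, had the largest difference of the 15, 0.37, and the largest error, SE 0.29. Its intensity was 96.1 to 146.6 in the 6 lower-end animals, 189.5 and 236.1 between the ends and 336.3 to 587.6 at the upper end. All 6 were below all others under each of the 6 settings of background, offset and normalization. With the coordinate as a covariate its difference was 0.053 (SE 0.13). Pkm was thus, with Gpi1, an enzyme of these steps whose level divided the animals by place on the axis, beside the macrophage markers above. Genes outside these steps, such as Akr1b3, Pfkfb4 and Actb, divided them so too with the quantile-normalized values. Actb did so under each of the 6 settings, and Akr1b3 under all but cyclic loess, where it put 5 below all others. Pfkfb4 depended on the setting, with 2 below all others after median scaling.

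**Figure D3:**
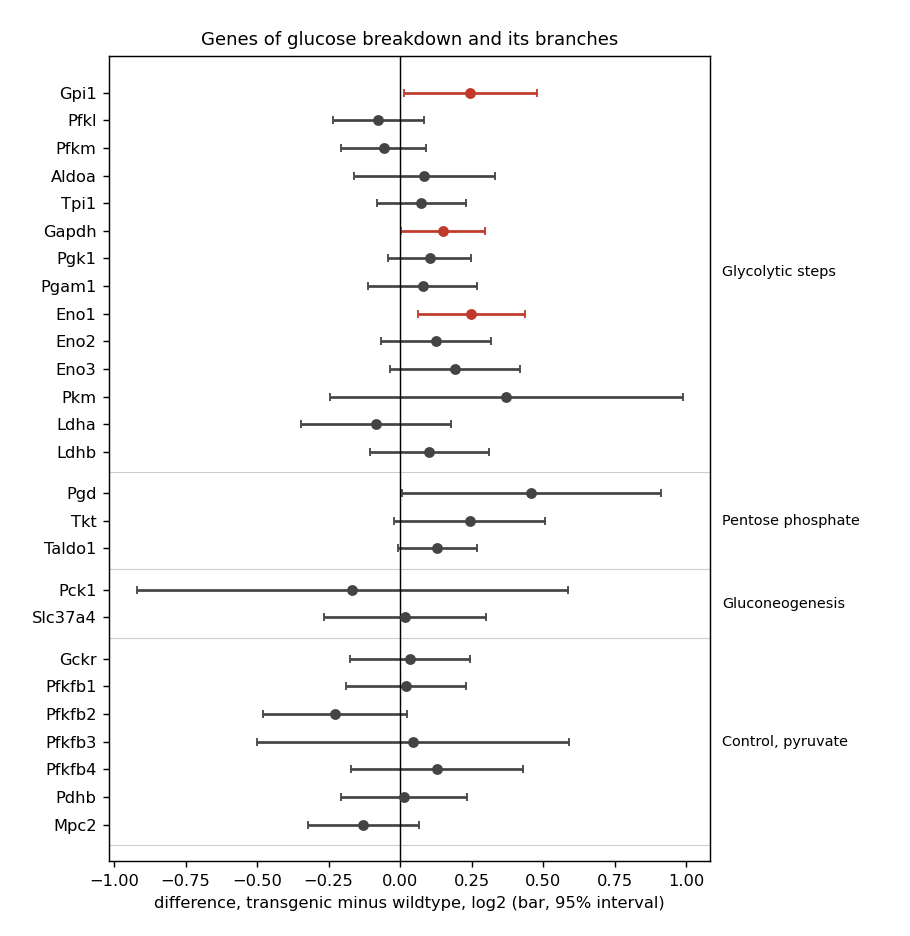
Difference of mean log2 level, transgenic minus wildtype, with its 95% interval from limma, for genes of the glycolytic steps in pathway order and of neighbouring pathways; red, the 3 chosen enzymes. The interval of Pkm is the widest of the glycolytic steps, and the enzymes of that list that were not chosen all have intervals that include 0.

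The pentose phosphate branch leaves glycolysis at the substrate of Gpi1 and returns at its product. Of 8 genes, 3 had a tested probe, and all 3 had a higher mean in transgenic liver. Pgd, which makes NADPH, had a log2 difference of 0.46 (SE 0.21), with intensities of 903 to 2924.2 in transgenic and 710.2 to 2063.4 in wildtype liver. Tkt and Taldo1, which return sugar phosphates to glycolysis, gave 0.24 (SE 0.13) and 0.13 (SE 0.066). A dimmer Tkt probe, detected on 9 arrays, gave 0.038 (SE 0.12). None of the 3 genes passed an adjusted p of 0.05 in limma.

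Along the axis these branch enzymes did not move alike. The log2 level of Pgd was 9.68 to 10.26 at the lower end and 10.25 to 11.59 at the upper end, and that of Tkt 11.84 to 12.31 and 12.24 to 12.81. Taldo1 ran from 11.02 to 11.36 at the lower end and from 10.95 to 11.24 at the upper end. The ranges of Pgd and Tkt barely overlapped and lay higher at the end where Gpi1 was higher, whereas those of Taldo1 overlapped widely.

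Around these steps there were few differences of size. Of 7 tested genes that control glycolysis or pyruvate use, 5 had a higher mean in transgenic liver, with a median log2 difference of 0.019. Pfkfb2 and Pfkfb4, which set the level of the activator fructose 2,6-bisphosphate, gave -0.23 (SE 0.12) and 0.13 (SE 0.14). The pyruvate carrier subunit Mpc2 gave -0.13 (SE 0.092) by its brighter probe and -0.039 (SE 0.12) by its dimmer probe. Of the genes used only to make glucose, Pck1 gave -0.17 (SE 0.36) and the glucose 6-phosphate transporter Slc37a4 gave 0.016 (SE 0.13). Pck1 varied most of these, with intensities of 234 to 1652.5 over the 16 livers.

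Of 4 tested genes of fructose, polyol and glycerol entry, only the aldose reductase Akr1b3 had a higher mean, by 0.33 (SE 0.25) on the log2 scale. Its level was 8.47 to 9.10 at the lower end and 9.12 to 10.12 at the upper end. The 2 glycogen genes, Phka2 and Ppp1r3b, and the sugar transporter Slc2a8 had lower means, at -0.081, -0.16 and -0.098. Of 4 tested hypoxia response genes, Egln1, Egln3, Ero1a and Mxi1, 2 had a higher mean, with a median difference of 0.0054. None of these genes was called by limma.

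Because Gapdh and Pgk1 serve as reference genes, their spread over the 16 livers was set beside that of other such genes. The dimmer Gapdh probe had the lowest SD of the 15 probes compared, 0.13 on the log2 scale, and its highest animal was 1.37-fold above its lowest. The brighter probe had an SD of 0.14 and was also low, with Pgk1 at 0.13 and Ppia at 0.14 among the probes below it. Among the 500 tested probes nearest in mean level, 27.8% and 39.0% had a smaller SD than the dimmer and the brighter Gapdh probe. The order at the top depended on the scaling: with the deposited intensities Ppia had an SD of 0.092 and the 2 Gapdh probes 0.12 each, and after median scaling Ppia had 0.095 and the Gapdh probes 0.15 each.

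Eno1 and Gpi1 varied more. Eno1 had an SD of 0.21 and a 1.58-fold range, and the brighter Gpi1 probe had an SD of 0.25 and a 1.78-fold range, with 59.0% and 70.4% of like probes below them. Actb, a common alternative to Gapdh, had the largest SD, 0.46, and a 2.95-fold range. Its log2 level was 12.32 to 12.69 at the lower end and 13.09 to 13.88 at the upper end. Of the 10 tested reference genes other than Gapdh, 8 had a higher mean in transgenic liver, with a median log2 difference of 0.11.

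**Figure D4:**
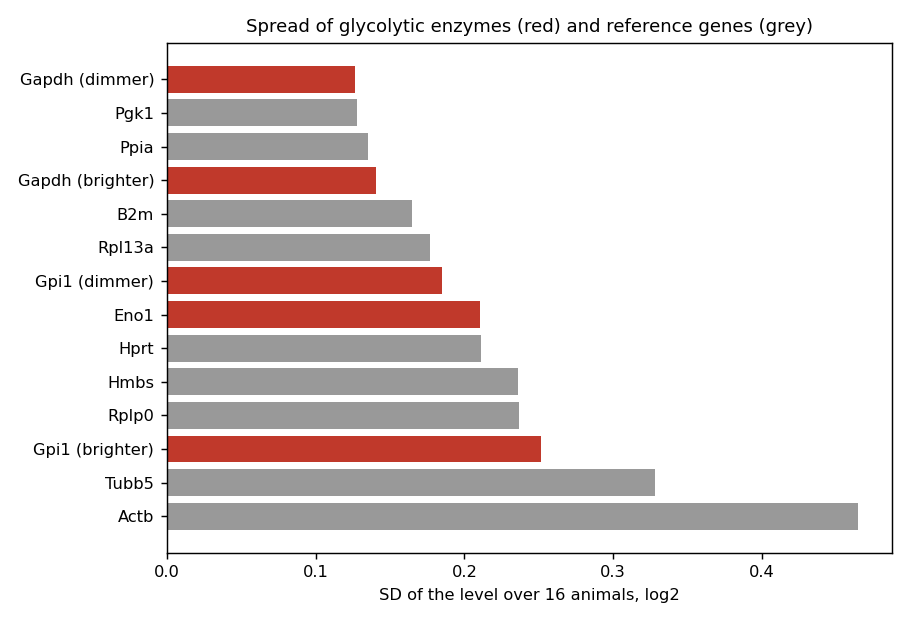
SD of the log2 level over 16 livers for the 5 named probes of Gpi1, Eno1 and Gapdh (red) and for reference genes (grey), sorted from the smallest. The Gapdh probes have SDs of 0.13 and 0.14, Gpi1 has 0.25 by its brighter probe, and Actb has 0.46.

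The 3 enzymes were also compared with each other over animals. Since the animals fall into clusters on the axis, the correlation is given within each end, as a description. Within an end the genotype means were not subtracted, so these values also carry the genotype difference on which the genes were chosen. Between Eno1 and the brighter Gapdh probe it was 0.61 over the 8 upper-end animals and 0.83 over the 6 lower-end animals. With the dimmer Gapdh probe it was 0.80 and 0.55. With the quantile-normalized values, genotype difference included, Eno1 and Gapdh thus tended to be high in the same animals at both ends. At the lower end the transgenic livers were highest in Eno1 and in the brighter Gapdh probe. Between them, replicate 1 read 10.78 and 13.63, and replicate 2 read 10.74 and 13.74. Within a genotype, over the whole axis, Eno1 and that probe correlated at 0.73 in transgenic (n = 7) and 0.57 in wildtype liver (n = 9).

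Gpi1 was less alike. Its brighter probe correlated with Eno1 at 0.49 over the upper-end and 0.52 over the lower-end animals, and with the brighter Gapdh probe at 0.33 and 0.45. Probes of the same gene were no closer, at 0.51 and 0.14 for the pair of Gpi1 and 0.26 and 0.30 for the pair of Gapdh, so that within an end a single probe ranks the animals only loosely. Over all 16 animals the genotype means were subtracted first. After median scaling, the correlation of Eno1 and Gapdh was 0.0024 there, and that of Gpi1 and Gapdh was -0.59. The quantile-normalized values gave 0.61 and 0.42. The relation of Gapdh to the other 2 enzymes therefore depended on the scaling.

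The named genes most like each enzyme over the 16 animals, among 2889 genes detected on all arrays, were read from deviations from the genotype means. Each enzyme was read by its brightest probe alone. For Gpi1 they included Il10rb, a cytokine receptor chain, Ifi27l2a, an interferon-induced gene, the lipase Lpl and the transcription factor Zeb2, at 0.91 to 0.93. Among the 8 upper-end animals alone the values for these 4 genes were 0.77, 0.38, -0.32 and 0.62, so that Il10rb and Zeb2 stayed alike there and Lpl did not. All values over the upper-end animals, here and for the other enzymes, were read without subtracting the genotype means. The least alike were Plpp3, a lipid phosphatase, Acsf2, an acyl-CoA synthetase, and Pex19, a peroxisome import factor, at -0.93, -0.92 and -0.92.

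For Eno1 they were Ifitm1, an interferon-induced membrane protein, Trub2, a pseudouridine synthase, G3bp2, a stress granule protein, Megf9 and Heatr1, a nucleolar protein, at 0.77 to 0.86. Within the 8 upper-end animals the values were 0.86, 0.62, 0.35, 0.71 and 0.90. The least alike were Rfxap, a subunit of a regulator of MHC class II genes, Pebp1, an inhibitor of Raf signalling, and Ppp1r15b, which directs dephosphorylation of eIF2α, at -0.86, -0.83 and -0.79.

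For Gapdh they were Tmem258, a subunit of oligosaccharyltransferase, Tmem234, Aamp, Shkbp1 and the glycolytic enzyme Tpi1, at 0.75 to 0.81. Tpi1 acts in the step before Gapdh, and it correlated with Gapdh at 0.75 over the 8 upper-end animals too. These genes are named for the brighter Gapdh probe and the quantile-normalized values, and the pattern of Gapdh depends on both. With the genotype means subtracted, the brighter and the dimmer Gapdh probe correlated at only 0.15 over the 16 animals. The least alike were Ugt1a1, which conjugates bilirubin, Fam120a and Eif1, a translation initiation factor, at -0.85, -0.80 and -0.79.

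Animals of the same genotype with the same title number were closer in Gpi1 than others. The median gap in log2 level was 0.092 over 6 such pairs and 0.29 over the 51 other pairs within a genotype for the brighter probe, and 0.016 against 0.12 for the dimmer probe. For Eno1 the medians were 0.17 and 0.19, and for the brighter Gapdh probe they were 0.19 and 0.11. The animals of each such pair also lay near each other on the axis, except wildtype replicates 6 and 7, at 16.6 and 6.95. Closeness by title number was thus seen for Gpi1 and the dimmer Gapdh probe, at 0.053 against 0.14, and not for the brighter Gapdh probe. The pairs are not independent: transgenic replicates 3, 4 and 5 share number 12 and make up several of the 6 pairs. The 51 other pairs also use the same animals repeatedly.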

How the data were processed

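Total liver RNA of 16 mice was read on Illumina arrays. The authors deposited linear intensities, made with BeadStudio 1.5.1.3 per the submitters' processing notes; array means of 331.4 to 333.5 show a common scaling, with no method given in the sources used here. A further deposited table, with 128 per-sample columns, could not be tied to animals and was not used.

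The deposited intensities were background-corrected with the normexp model per array (saddle-point fit, offset 16), taken to log2 and quantile-normalized. No detection p-value was used: a probe was detected above 1.64 SDs of background noise (a limit of 17.1 to 32.5 in intensity), and testing kept the 11317 probes that were detected on at least 6 arrays. Probes were named by the gene number or transcript in their identifier through RefSeq (GRCm38.p6), which named 8893 of 24048 (37.0%). Each gene is read by its brightest probe. Arrays correlated at 0.944 to 0.992.

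The genotype comparison used limma 3.58.1 (lmFit, then eBayes; R 4.3.3; Benjamini-Hochberg, threshold 0.05); the fit was tested on simulated data. The members and all gene lists were chosen with earlier results of these data known. The genes named are all members, list genes with a named probe, the 5 most and 3 least alike genes of each member, and Gpnmb; some of these genes are counted in the lists but not reported here by name. Whether animals came from separate cages or litters is not stated, so errors measure the spread between these animals. Some title numbers are shared across genotypes, but deviations of their animals correlated at -0.13, -0.56 and -0.40, so they were not treated as pairs. These correlations cannot show whether such animals shared a cage or litter. Alternatives changed the background step, offset, normalization, probe filter, title-number block, array weights, axis covariate and the animals included.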

Additional observations from a re-analysis of the deposited data

Results flagged for a closer look

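In 5 of 104 checks (52 probes in 2 genotypes), a single animal stood apart from the rest of its genotype; chance alone gives about 1 in 20. The dimmer Gpi1 probe read 7.49 in transgenic replicate 1 on the log2 scale, below the other 6 transgenic livers at 7.96 to 8.10, and the brighter probe did not set this animal apart. Ldhb read 6.48 in wildtype replicate 3, against 6.83 to 7.18 in the other wildtype livers. The glycerate kinase gene Glyctk read 8.99 in transgenic replicate 2, against 8.18 to 8.50 in the others. Egln1, an oxygen sensor, read 7.70 in wildtype replicate 4, against 8.09 to 8.29. The reference gene Rplp0 read 6.14 in wildtype replicate 9, against 6.69 to 7.08, at an intensity of 18 near the limit of detection, and it was detected on 15 arrays. The causes were not tested.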

How the results depend on the processing

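No probe passed the adjusted threshold in limma under any of the 28 alternatives, while the count at an unadjusted p under 0.05 ran from 193 to 1509, the latter with title number as a fixed replicate block. The log2 difference stayed positive for Eno1 in 28 alternatives and for Gpi1 and Gapdh in 30 each. With the replicate block it was 0.32 for Eno1 and 0.38 for Gpi1, although whether shared numbers pair the animals is not stated. With title number within genotype as a random block, animals of a block correlated at 0.38. The difference was then 0.24 (SE 0.10) for Eno1, 0.21 (SE 0.12) for Gpi1 and 0.14 (SE 0.087) for Gapdh. Leaving out each animal in turn gave 0.21 to 0.29 for Eno1, 0.20 to 0.30 for Gpi1 and 0.11 to 0.18 for Gapdh. Gapdh fell to 0.079 with median scaling, and Gpi1 to 0.069 without the 4 animals of title number 12, an alternative chosen after seeing the data. The number of glycolytic steps with a higher mean was 9 of 12 with probes detected on all arrays and 14 of 18 with no probe filter. The likeness of Gpi1 and Gapdh, 0.42, was -0.27 with the deposited intensities, -0.26 with no normalization between arrays and -0.59 with median scaling; that of Eno1 and Gapdh, 0.61, was 0.0024 with median scaling. The cause was not tested. The scaling moved the share of probes with a higher transgenic mean from 48.7% to between 43.8% and 57.5%. Dim probes such as those of Pgam1, Eno2 and Eno3 lie near the detection limit, so their values are the least firm.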
